A study of Mus musculus with 12 samples.

Results

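The genes by which mast cells are known, 10 in number, were followed in the skin of 5 mice with atopic dermatitis (AD) and 7 mice with AD on a high-fat diet (HF + AD, labelled AD+OB). They are the proteases Cpa3, Mcpt4, Cma1, Tpsb2 and Tpsab1, the receptor Kit, the IgE receptor chains Ms4a2 and Fcer1g, the receptor Mrgprb1, and the histamine enzyme Hdc. They were picked by symbol from the 23282 entries of the count files, and all 10 were found. Both groups were wild-type male C57BL/6J mice, 5 weeks old at the start, whose AD-like lesions were raised with 0.5% 2,4-dinitrochlorobenzene (DNCB), a contact sensitizer, over 6 weeks. The AD mice ate normal chow, whereas the HF + AD mice ate a diet with 60% of its energy from fat for 4 weeks before DNCB and 10 weeks in all. RNA was taken from whole skin, with 1 library per mouse. Sham mice were not analysed here, so that the values compare diets within DNCB-treated skin.

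Mast cells are granule-filled immune cells that sit in the dermis close to vessels, nerves and hair follicles. IgE bound to its high-affinity receptor on their surface is crosslinked by allergen, and the granules are then released with histamine, heparin and proteases. Kit is the receptor for stem cell factor, the growth factor on which these cells depend for survival, and the mix of granule proteases differs between mast cells of connective tissue and of mucosa. In whole skin, fewer mast cells and less RNA per mast cell cannot be told apart.

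Epidermal and dermal markers were abundant in all 12 libraries. The summed level of 5 keratinocyte genes was 3049 to 5530 CPM (reads scaled to each library's normalized total) in the AD group and 5458 to 9744 CPM in the HF + AD group, and that of 6 fibroblast genes 3283 to 9883 and 3292 to 10275 CPM. Between 9746937 and 13462434 reads per mouse were counted on genes. The AD libraries were the less complex ones: the AD mice had reads on 13100 to 15063 genes each, against 15522 to 16677 in the HF + AD mice. An estimate of the counts that stand for 1 sequenced molecule, made from how often moderately expressed genes were missed, was 12.6 to 34.1 in the AD group and 3.98 to 7.50 in the HF + AD group. AD mouse 1 stood apart by its S100a8 count of 26505, against 921 to 2020 in the other AD mice, and by the highest summed fibroblast level of its group.

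Counts were normalized with edgeR and tested with its quasi-likelihood test, with Benjamini–Hochberg adjustment over the 14163 genes that had enough counts. Of the 10 mast cell genes, 9 were kept by the filter on low counts and Tpsab1 was not. No mast cell gene passed an adjusted p of 0.05 in edgeR's test, where 9.2% of all genes did (1303 of 14163, with 4.43% higher and 4.77% lower in the HF + AD group). The 627 higher and 676 lower calls became 744 and 519 with library totals alone, and 473 and 869 with a correction for transcript GC content. Cpa3 and Fcer1g had an unadjusted p under 0.05, which makes 2 of 9 genes against 25.1% of all genes. DESeq2's test called these 2, with no adjusted p for Ms4a2, and limma's test called none. Of the 9 genes, 7 were higher and 2 lower in the HF + AD group, and the median log2 fold change was 0.16, beside 0.023 over all genes tested. No mast cell gene had levels without overlap between the groups, where 5.46% of all genes tested had. Single genes were compared on the log2(CPM + 1) scale by exact permutation tests, two-sided and over all ways to split 12 mice into 5 and 7, and these p-values measure the spread among the mice of this one experiment. The plot of fold changes places Cpa3 and Fcer1g apart from the other 7 genes.

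**Figure D1:**
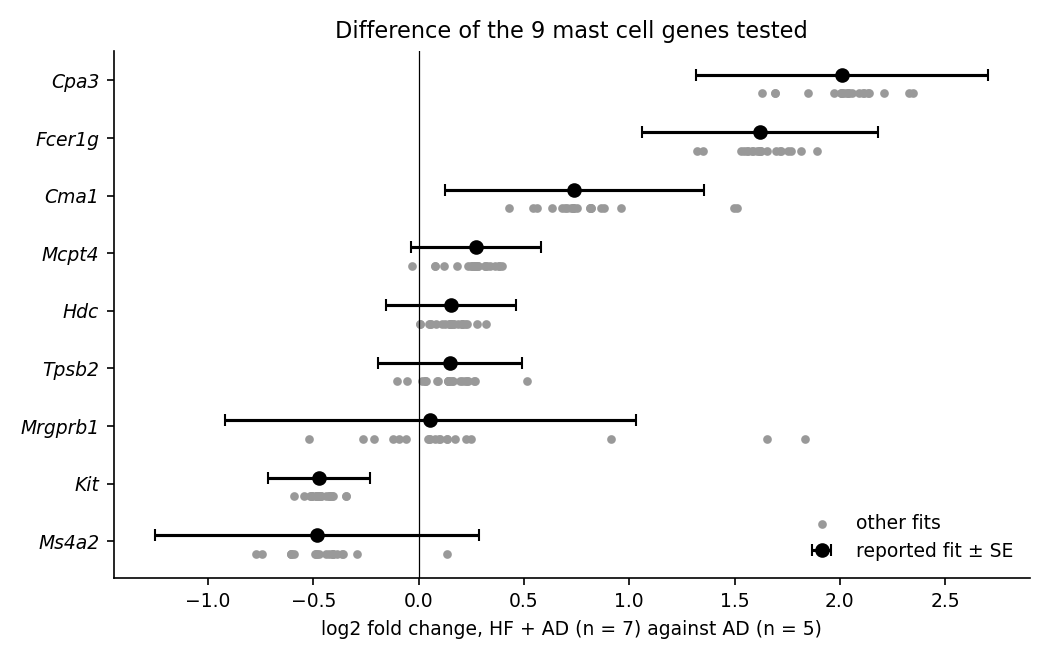
Log2 fold change of the HF + AD group (n = 7) against the AD group (n = 5) on the horizontal axis for the 9 mast cell genes tested. Black points with bars are edgeR's estimate and its standard error and grey points are the same gene under the other fits; Cpa3 (2.01) and Fcer1g (1.62) lie to the right of 0 in all of them, and the estimates of Mrgprb1 fall on both sides of 0.

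Cpa3 (chromosome 3, 20215620 to 20242181 on GRCm38, minus strand) encodes carboxypeptidase A3, the exopeptidase of the mast cell granule. Its level was 3.26, 5.69, 0, 3.89 and 2.62 CPM in AD mice 1 to 5, from 0 to 55 reads. In the HF + AD group it lay between 5.48 and 29.8 CPM with a median of 8.24, from 63 to 396 reads. HF + AD mouse 4 was the one HF + AD mouse below an AD mouse (AD mouse 2), and the other 6 lay above all AD mice. On the log2(CPM + 1) scale the mean was 1.80 ± 1.06 over the AD mice (SD, n = 5) and 3.51 ± 0.86 over the HF + AD mice (SD, n = 7) (exact permutation p = 0.00379). Across all genes the log2 fold change was 2.01 (standard error 0.69), which missed the threshold (unadjusted p = 0.00983, adjusted p = 0.0781 from edgeR). Over 21 other fits the adjusted p ranged from 0.0141 to 0.344 and was under 0.05 in 2 of them. By the estimate of counts per molecule, the reads on Cpa3 stand for 8.63 molecules in the 5 AD libraries together and for 202 in the 7 HF + AD libraries. With the counts divided by this estimate the log2 fold change was 2.21 (adjusted p = 0.0416 from edgeR). That fit rests on 0 to 3.46 molecules per AD mouse, so that its call is uncertain. The gene overlaps the microRNA gene Mir7007 on the same strand; no other mast cell gene followed here overlaps another annotated gene.

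**Figure D2:**
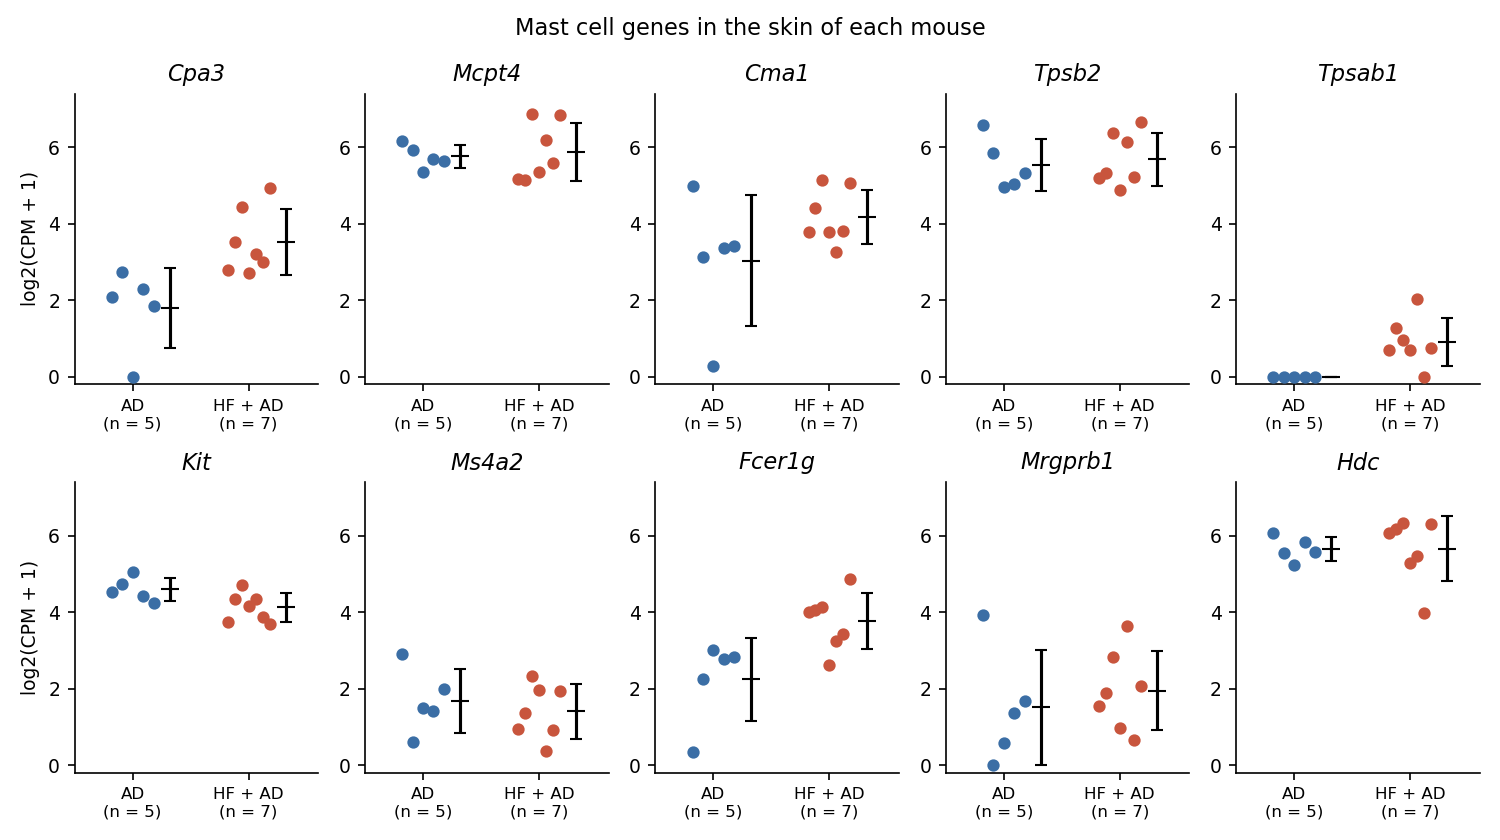
Level of each mast cell gene in each mouse as log2(CPM + 1), 1 panel per gene, with the AD mice (n = 5, blue) and the HF + AD mice (n = 7, red) in order of their number from left to right and black bars for the mean ± SD. The groups overlap in all 10 panels, and the HF + AD points lie highest relative to the AD points for Cpa3, Tpsab1 and Fcer1g.

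Mcpt4 and Cma1 encode chymases, proteases of the connective tissue type of mast cell. Both lie on the minus strand of chromosome 14, Cma1 from 55941451 to 55944675 and Mcpt4 from 56059629 to 56062313, with 115 kb between them. Mcpt4 was at 70.5, 60.1, 39.9, 51.0 and 48.6 CPM in AD mice 1 to 5 and at 34.3 to 116 CPM (median 46.6) in the HF + AD mice. The HF + AD mice spread to both sides of the AD mice, with 3 above and 2 below all of them. Mcpt4 averaged 5.76 ± 0.31 (SD, n = 5) and 5.87 ± 0.75 (SD, n = 7), and the means differed by less than the mice of either group spread (exact permutation p = 0.739), and the fitted log2 fold change was 0.27 with a standard error of 0.31 (adjusted p = 0.641 from edgeR).

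Cma1 was at 30.4, 7.76, 0.20, 9.19 and 9.68 CPM in AD mice 1 to 5 and at 8.52 to 34.1 CPM (median 13.05) in the HF + AD mice. AD mouse 1 reached the level of the highest HF + AD mice, and AD mouse 3 had 2 reads. Mean log2(CPM + 1) values were 3.03 ± 1.71 (SD, n = 5) and 4.18 ± 0.71 (SD, n = 7) (exact permutation p = 0.115). Without AD mouse 1 the exact permutation p was 0.00909, and without AD mouse 3 it was 0.348. The log2 fold change over all mice was 0.74 (standard error 0.62, adjusted p = 0.497 from edgeR).

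Tpsb2 encodes a tryptase and lies on chromosome 17 (25366305 to 25369098, plus strand). It was at 94.6, 56.5, 29.8, 31.6 and 38.9 CPM in AD mice 1 to 5 and at 28.5 to 99.9 CPM (median 38.7) in the HF + AD mice. The groups covered nearly the same range. On the log2 scale the level averaged 5.54 ± 0.68 (SD, n = 5) and 5.68 ± 0.69 (SD, n = 7) (exact permutation p = 0.716). Its fitted log2 fold change was 0.15 with a standard error of 0.34 (adjusted p = 0.834 from edgeR).

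Tpsab1, the second tryptase gene, lies 20.7 kb from Tpsb2 on the other strand (25343245 to 25345562). The C57BL/6 strain is known to carry a splice site change in this gene that leaves it without the tryptase protein. It had no reads in the 5 AD mice. In HF + AD mice 1 to 7 the counts were 8, 18, 13, 7, 33, 0 and 9. Reads were thus found in 6 of 7 HF + AD mice and in none of the AD mice (exact permutation p = 0.0126). Its counts were too low for the fit across all genes, and without a filter on low counts it passed edgeR's test (adjusted p = 0.0346). No fold is given, since its HF + AD level reached 3.09 CPM at most, while 3 molecules stand for 3.32 to 9.35 CPM in 1 AD library. In AD mice 1 to 5, a count of 0 allows up to 3 counts, or 0.257 to 0.308 CPM by counting error alone. The transcripts of Tpsb2 and Tpsab1 were 76.1% identical over the 222 aligned bases of their last 300 bases, with a longest shared run of 23 bases. How reads shared between such copies were counted is not given in the sources used here, so that the low Tpsab1 counts are uncertain.

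The make-up of the protease reads differed between the groups in Cpa3. Cpa3 gave 1.64%, 4.38%, 0%, 4.07% and 2.63% of the summed CPM of the 5 proteases in AD mice 1 to 5. In the HF + AD group its share was 5.15% to 10.8%, with a median of 6.79%. The groups did not overlap, with means of 2.54% ± 1.80 (SD, n = 5) and 7.67% ± 2.06 (SD, n = 7) (exact permutation p = 0.00126, the smallest that this design allows). The p was at most 0.00606 when any 1 mouse was left out. The AD shares rest on few molecules, an estimated 1.06, 1.81, 0, 3.46 and 2.30 of Cpa3 in AD mice 1 to 5. The gap between the groups is therefore uncertain. One read in this protocol comes from the 3′ end of 1 transcript, so that reads were not divided by gene length, and a share compares mice and not the true amounts of 2 genes.

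The shares of Mcpt4, Tpsb2 and Cma1 overlapped between the groups. Mcpt4 made up 48.2% ± 8.23 of the protease reads of AD mice (SD, n = 5) and 42.0% ± 4.86 of those of HF + AD mice (SD, n = 7) (exact permutation p = 0.135). For Tpsb2 these shares were 41.1% ± 5.48 (SD, n = 5) and 36.6% ± 3.76 (SD, n = 7) (exact permutation p = 0.110). Cma1 gave 8.17% ± 5.52 (SD, n = 5) and 13.04% ± 4.15 (SD, n = 7) (exact permutation p = 0.115). Among the 5 shares tested, that of Tpsab1 also had a p under 0.05 (0% against 0.751% ± 0.670, SD, n = 7, exact permutation p = 0.0202). It rests on the few reads described above, and without any 1 AD mouse its exact permutation p was 0.0636. Without AD mouse 1 the share of Mcpt4 was lower (exact permutation p = 0.00606) and that of Cma1 higher (p = 0.0364) in the HF + AD group. Without HF + AD mouse 5 the exact permutation p of the Cma1 share was 0.0281, and without AD mouse 4 that of the Tpsb2 share was 0.0273.

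**Figure D3:**
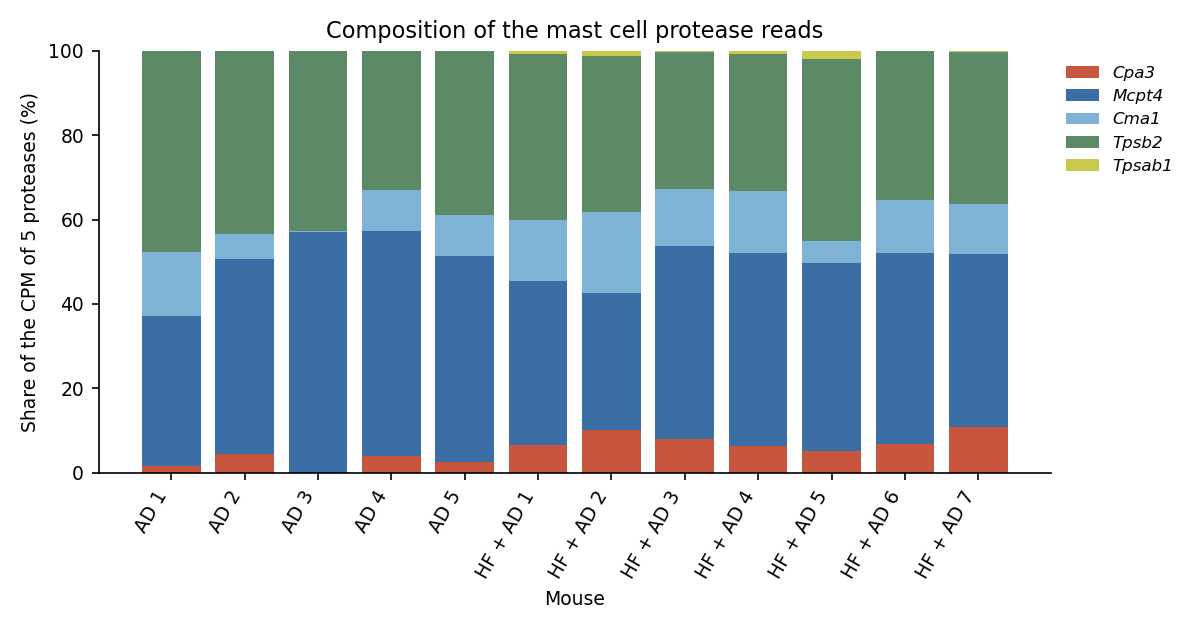
Share of each of 5 mast cell proteases in their summed CPM (vertical axis, percent), 1 bar per mouse. The lowest segment, Cpa3, takes 0% to 4.38% in the 5 AD mice and 5.15% to 10.8% in the 7 HF + AD mice, while Mcpt4 and Tpsb2 take most of every bar.

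Relative to Cpa3, several mast cell genes were lower in the HF + AD group. The difference between Mcpt4 and Cpa3 on the log2(CPM + 1) scale was 3.96 ± 0.85 over the AD mice (SD, n = 5) and 2.36 ± 0.46 over the HF + AD mice (SD, n = 7), without overlap (exact permutation p = 0.00126). Kit against Cpa3 did not overlap either, at 2.80 ± 1.26 (SD, n = 5) and 0.61 ± 0.89 (SD, n = 7) (exact permutation p = 0.00126). Of the 9 differences computed, those of Tpsb2 (exact permutation p = 0.00253), Hdc (p = 0.00505) and Ms4a2 (p = 0.0152) also had a p under 0.05, all lower in the HF + AD group. Fcer1g differed from Cpa3 by 0.44 ± 1.77 (SD, n = 5) and 0.25 ± 0.52 (SD, n = 7), closer than the spread (exact permutation p = 0.780). All 9 share the Cpa3 values, so that they are not independent of each other or of the higher Cpa3 level. They also rest on the same few Cpa3 molecules of the AD libraries.

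Around their group means, mice with more Cpa3 also had more of the other abundant proteases. With the mean of each group subtracted, Pearson's r with Cpa3 over the 12 mice was 0.73 for Mcpt4 (permutation p = 0.00391) and Spearman's rho was 0.73 (permutation p = 0.00743). For Cma1 r was 0.79 (permutation p = 0.00830) and rho 0.77 (permutation p = 0.00919), and for Tpsb2 r was 0.70 (permutation p = 0.0199) and rho 0.71 (permutation p = 0.0150). Without AD mouse 3 and HF + AD mouse 7, the mice farthest from the median of Cpa3, r was 0.70, 0.59 and 0.60. Among the 9 relations computed, Hdc had an r of 0.52 (permutation p = 0.0696) and a rho of 0.65 (permutation p = 0.0273). The other 5 genes had r between −0.17 and 0.26, among them Fcer1g at 0.16 (permutation p = 0.623, rho 0.26, permutation p = 0.431) and Kit at −0.17 (permutation p = 0.610, rho −0.15, permutation p = 0.649). Within the HF + AD group alone (n = 7) r was 0.84 for Mcpt4, 0.88 for Cma1, 0.88 for Tpsb2 and 0.80 for Fcer1g. The r of Kit was 0.50 without the same 2 mice. The values of a mouse share its library. In HF + AD mice 3 and 7, which had the highest Cpa3, Mcpt4, Cma1 and Tpsb2 of their group, the summed level of the 6 fibroblast markers was 8339 and 10275 CPM, against 3292 to 4607 CPM in the other 5, and the part of dermal content in these relations was not tested.

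**Figure D4:**
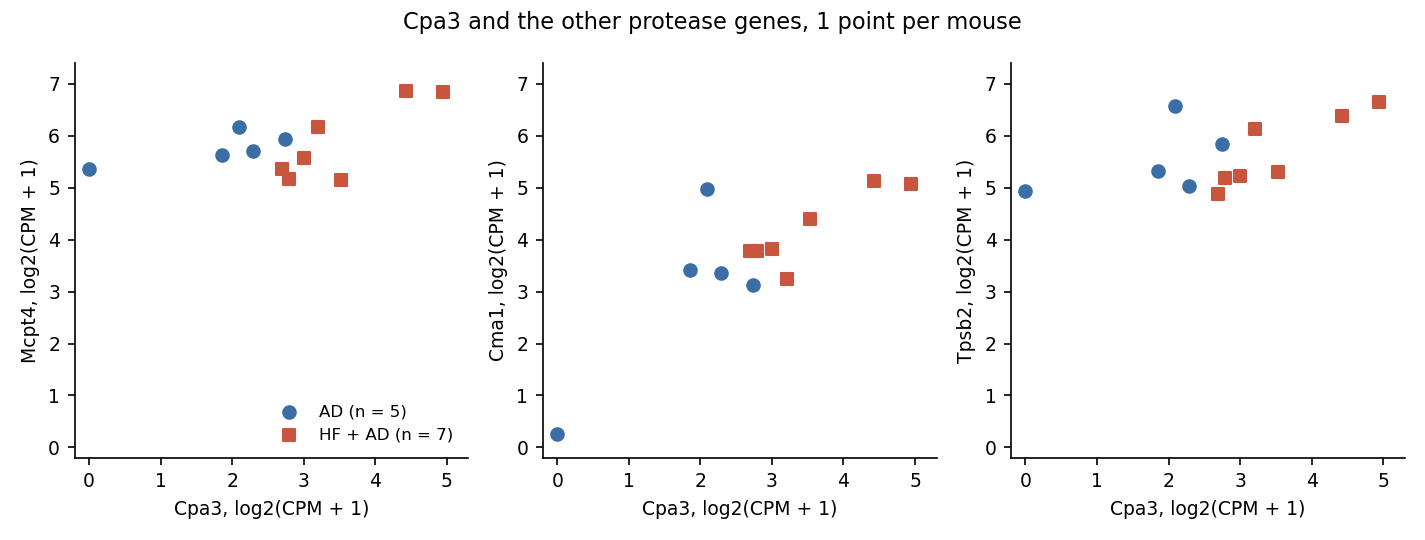
Levels of Mcpt4, Cma1 and Tpsb2 (vertical axes) against that of Cpa3 (horizontal axes), both as log2(CPM + 1), with 1 point per mouse (blue circles, AD, n = 5; red squares, HF + AD, n = 7). Within the HF + AD group the points rise together, and at equal Mcpt4 or Tpsb2 the HF + AD mice lie to the right of the AD mice.

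The stretches before the start sites of the protease genes Cpa3, Mcpt4 and Cma1 are shown, and their part in the shared variation was not tested. Promoter sequences were from RefSeq on GRCm38.p6, where 8 of the 10 genes were found; Tpsb2 and Tpsab1 were not. The 250 bases before the start of Cpa3 (chr3:20242182-20242431), Mcpt4 (chr14:56062311-56062560) and Cma1 (chr14:55944676-55944925) are given 5′ to 3′ on the strand of the gene, the minus strand in each case. Capitals mark the letters GATAA, or TTATC where it lies on the opposite strand, the core that GATA factors such as the mast cell regulator GATA2 are known to bind.
Cpa3: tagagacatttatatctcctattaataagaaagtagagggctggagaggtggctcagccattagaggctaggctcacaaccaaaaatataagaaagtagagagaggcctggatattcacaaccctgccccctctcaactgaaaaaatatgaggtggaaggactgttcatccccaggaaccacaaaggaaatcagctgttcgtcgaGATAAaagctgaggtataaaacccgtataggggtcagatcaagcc
Mcpt4: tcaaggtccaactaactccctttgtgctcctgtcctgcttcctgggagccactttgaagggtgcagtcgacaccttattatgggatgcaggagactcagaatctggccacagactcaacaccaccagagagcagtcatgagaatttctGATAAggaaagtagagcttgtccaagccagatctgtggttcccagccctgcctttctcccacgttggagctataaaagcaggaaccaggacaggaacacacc
Cma1: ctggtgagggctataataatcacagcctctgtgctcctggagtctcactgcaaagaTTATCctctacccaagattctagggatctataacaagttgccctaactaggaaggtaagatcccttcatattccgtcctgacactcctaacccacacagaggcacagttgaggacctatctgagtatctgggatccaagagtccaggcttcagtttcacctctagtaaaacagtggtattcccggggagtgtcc

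GATAA, read on both strands, was found once in each of these 3 promoters, 3 times in that of Ms4a2 and not in those of Kit, Fcer1g, Mrgprb1 and Hdc. It was thus found in 4 of 8 promoters, and 23.0% of the 27025 RefSeq promoters of the same length hold it. TATAAA, the TATA box core, was found in Cpa3 and Mcpt4 (2 of 8, against 12.97% of all). The E-box letters CANNTG, which transcription factors such as MITF are known to bind, were found in 5 of 8 promoters, against 66.04% of all. A match describes the letters in this window alone.

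The IgE receptor of mast cells is built from an alpha chain that binds IgE (Fcer1a), a beta chain that strengthens the signal (Ms4a2) and a pair of signalling gamma chains (Fcer1g), which macrophages, dendritic cells and other cells also use for their Fc receptors. Fcer1g (chromosome 1, 171229572 to 171234365) was at 0.27, 3.73, 7.06, 5.83 and 6.06 CPM in AD mice 1 to 5 and at 5.13 to 28.3 CPM (median 15.1) in the HF + AD mice. HF + AD mouse 4 lay among the AD mice and the other 6 above all of them, while AD mouse 1 stood below the rest with 3 reads. As log2(CPM + 1) the groups averaged 2.24 ± 1.10 (SD, n = 5) and 3.77 ± 0.73 (SD, n = 7) (exact permutation p = 0.00758). Its fitted log2 fold change, 1.62 with a standard error of 0.56, missed the threshold across all genes (unadjusted p = 0.00995, adjusted p = 0.0784 from edgeR), and over 21 other fits the adjusted p ranged from 0.0205 to 0.275, with 2 under 0.05. Without AD mouse 1 the log2 fold change was 1.32 (adjusted p = 0.0525 from edgeR). By the estimate of counts per molecule, the reads on Fcer1g stand for 15.9 molecules in the 5 AD libraries together. In the 7 HF + AD libraries they stand for 238. Of 12 macrophage and dendritic cell markers, 8 were higher and 4 lower and none passed the adjusted threshold (1 had an unadjusted p under 0.05). Their summed level was 86.5 to 337 CPM in the AD group and 118 to 362 CPM in the HF + AD group, with Cd74 (log2 fold change −0.061) as its largest part. The macrophage markers Adgre1 and Cd68 had log2 fold changes of −0.12 and 0.62, and Mrc1 and Cd163 of 1.30 and 1.77. Cd163 was the marker with an unadjusted p under 0.05 (0.0496 from edgeR). Csf1r, the receptor for the macrophage growth factor, had a log2 fold change of 1.04, and it was called without AD mouse 1 (log2 fold change 2.30, adjusted p = 0.0202 from edgeR). The part of such cells in the Fcer1g level was not tested.

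Ms4a2 (chromosome 19, 11615523 to 11623719) was counted sparsely. It was at 6.44, 0.52, 1.82, 1.68 and 2.98 CPM in AD mice 1 to 5, from 5 to 71 reads, and at 0.28 to 4.06 CPM (median 1.55) in the HF + AD mice, from 3 to 56 reads. The ranges overlapped, and AD mouse 1 was the highest of all 12 mice. Log2(CPM + 1) averaged 1.68 ± 0.84 (SD, n = 5) and 1.40 ± 0.71 (SD, n = 7) (exact permutation p = 0.548), and the fitted log2 fold change was −0.48 with a standard error of 0.77 (adjusted p = 0.750 from edgeR), with 0.13 without AD mouse 1. The alpha chain Fcer1a, which is not one of the 10 genes, was without reads in the AD mice and had 5, 5, 43, 19, 0, 12 and 29 reads in HF + AD mice 1 to 7, too few for the test across all genes. Without a filter on low counts, or with any 1 AD mouse left out so that the filter kept it, Fcer1a passed edgeR's test (adjusted p between 0.0303 and 0.0483). The filter then kept it through its HF + AD reads alone, so that these fits are no separate check. Its HF + AD level averaged 1.24 CPM, while 3 molecules stand for 3.32 to 9.35 CPM in 1 AD library.

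Kit (chromosome 5, 75574916 to 75656722) marks mast cells and pigment cells in skin. It was at 22.2, 25.8, 31.8, 20.4 and 17.9 CPM in AD mice 1 to 5 and at 11.9 to 25.3 CPM (median 16.9) in the HF + AD mice. No HF + AD mouse lay above all AD mice, and 4 lay below all of them. Mean log2(CPM + 1) values were 4.60 ± 0.31 (SD, n = 5) and 4.13 ± 0.37 (SD, n = 7) (exact permutation p = 0.0492). This p was over 0.05 without any 1 of AD mice 1 to 3 or of HF + AD mice 1, 2, 4, 5, 6 and 7, the highest being 0.121 without AD mouse 3, and it was 0.0631 with library totals alone. Across all genes the fitted log2 fold change was −0.47 with a standard error of 0.24 (adjusted p = 0.232 from edgeR), and none of 22 other fits gave an adjusted p under 0.05. Of 7 pigment cell markers, 5 were lower and 2 higher, the higher ones being Sox10 (log2 fold change 0.42) and Tyr (0.026). Dct (−0.68, adjusted p = 0.0177 from edgeR) and Pmel (−0.46, adjusted p = 0.0430), both of melanin synthesis, fell (Pmel was not called in 10 of the 12 fits without 1 mouse). Tyrp1 missed the threshold (−0.76, adjusted p = 0.0717 from edgeR) and was called in some other fits, DESeq2's test among them. The summed level of the list was 1825 to 2850 CPM in the AD group and 894 to 1930 CPM in the HF + AD group, with Dct as its largest part. The part of pigment cells in the Kit level was not tested. Kitl, the ligand of Kit, was at 41.8 ± 16.4 CPM (SD, n = 5) and 41.3 ± 9.95 CPM (SD, n = 7), with a log2 fold change of −0.019 (standard error 0.27).

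Mrgprb1 (chromosome 7, 48444113 to 48456342) encodes a Mas-related G protein-coupled receptor. It was at 14.2, 0, 0.50, 1.59 and 2.17 CPM in AD mice 1 to 5 and at 0.57 to 11.5 CPM (median 2.71) in the HF + AD mice. A single mouse led each group, AD mouse 1 with 157 reads and HF + AD mouse 5 with 123. On the log2 scale the level averaged 1.51 ± 1.502 (SD, n = 5) and 1.94 ± 1.04 (SD, n = 7) (exact permutation p = 0.559), and its fitted log2 fold change was 0.056 with a standard error of 0.98 (adjusted p = 0.983 from edgeR). Mrgprb2, the related mast cell receptor for basic peptides, had at most 23 reads in an AD mouse and 21 in an HF + AD mouse and was not tested across all genes.

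Hdc (chromosome 2, 126593667 to 126619299) encodes histidine decarboxylase, which makes histamine. It was at 65.6, 45.6, 36.2, 56.0 and 46.5 CPM in AD mice 1 to 5 and at 14.7 to 79.7 CPM (median 65.98) in the HF + AD mice. Above all AD mice lay 4 HF + AD mice, and HF + AD mouse 6 was the lowest of all 12. As log2(CPM + 1) the groups averaged 5.64 ± 0.32 (SD, n = 5) and 5.65 ± 0.85 (SD, n = 7), with means closer together than for any of the other 9 genes (exact permutation p = 0.986), and the fitted log2 fold change was 0.16 with a standard error of 0.31 (adjusted p = 0.805 from edgeR). Of 7 genes for histamine receptors and breakdown, Hrh3 and Hrh4 had no read in any mouse. Hrh1, the receptor of vessels and nerves, had at most 8 reads in an AD mouse and 37 in an HF + AD mouse, and Hrh2 at most 6 and 14. The 2 genes of this list with enough counts gave no call in edgeR's test, and none had an unadjusted p under 0.05.

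The other genes of mast cell pathways gave few calls. Among 6 further mast cell proteases 5 were found, of which Mcpt1 and Ctsg had no read in any mouse, Mcpt2 had 7 reads in each of 1 AD and 1 HF + AD mouse, and 1 was tested and not called. Of 8 further receptors, 7 were found and 3 tested, with none called and 1 at an unadjusted p under 0.05, Adora3, an adenosine receptor, which limma's test called (adjusted p = 0.0430 from limma). The 6 transcription factors of mast cells gave 5 tested and none called, and none had an unadjusted p under 0.05. Gata2 was at 4.21 ± 3.65 CPM (SD, n = 5) and 5.13 ± 1.38 CPM (SD, n = 7), and Gata1 at 0.331 ± 0.740 and 0.769 ± 0.608 CPM (SD, n = 5 and 7).

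Of 10 genes for granules and lipid mediators, all were tested, 8 were higher and 2 lower, and 1 passed in each direction. Alox5ap, which presents arachidonic acid to 5-lipoxygenase, rose (log2 fold change 1.86, standard error 0.40, adjusted p = 0.0113 from edgeR). Hpgds, the prostaglandin D synthase of mast cells and other blood-derived cells, fell from 35.7 ± 13.5 CPM (SD, n = 5) to 19.7 ± 3.62 CPM (SD, n = 7) (log2 fold change −0.86, standard error 0.24, adjusted p = 0.0367 from edgeR), a call lost in 7 of the 12 fits without 1 mouse. The median log2 fold change of this list was 0.62.

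Downstream of the IgE receptor, 16 of 17 signalling genes were tested, and 12 were higher and 4 lower without a call in edgeR's test, with 2 at an unadjusted p under 0.05 (median log2 fold change 0.24). The gene not tested was Plcg1, a phospholipase of this pathway. It passed edgeR's test without a filter on low counts and with any 1 AD mouse left out (adjusted p between 0.0219 and 0.0353). With a mouse left out, the filter kept Plcg1 through its HF + AD reads alone, so that these fits are no separate check. Plcg1 had 0, 0, 0, 1 and 1 reads in AD mice 1 to 5 and 7 to 50 in the HF + AD mice. Its HF + AD level averaged 1.52 CPM, while 3 molecules stand for 3.32 to 9.35 CPM in 1 AD library, so that its difference is uncertain. Lyn, the kinase that first phosphorylates the receptor, was at 6.16 ± 5.41 CPM (SD, n = 5) and 13.3 ± 4.37 CPM (SD, n = 7) (adjusted p = 0.205 from edgeR), and Fyn, a second kinase of this step, at 9.22 ± 7.17 and 18.3 ± 4.26 CPM (SD, n = 5 and 7, adjusted p = 0.175 from edgeR). Of 11 growth factors and cytokines that act on mast cells, 6 were tested. Tslp, an epithelial cytokine of allergic inflammation, fell from 37.0 ± 23.96 CPM (SD, n = 5) to 12.8 ± 8.32 CPM (SD, n = 7) (log2 fold change −1.53, standard error 0.46, adjusted p = 0.0449 from edgeR), a call lost in 9 of the 12 fits without 1 mouse, and no gene of this list passed in the other direction.

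Markers of other cells that could hold some of these transcripts were read from the same fit. Of 3 basophil markers 1 was tested and not called, and Mcpt8, the basophil protease, had at most 37 reads in an AD mouse and 30 in an HF + AD mouse, and Prss34 had 1 read in all. Epx and Prg2, which define eosinophils, had no read in any mouse, and none of the 5 eosinophil markers was tested. Of 8 neutrophil markers 4 were tested and none called in edgeR's test, with 3 at an unadjusted p under 0.05. They were split in direction, with S100a8 and S100a9, subunits of calprotectin, at log2 fold changes of −1.53 and −1.57. The chemokine receptor Cxcr2 and the secreted protein Retnlg were at 2.02 and 2.37. The 2 lower values rest largely on AD mouse 1, with 26505 reads on S100a8 and 14255 on S100a9. The other AD mice had 921 to 2020 and 1083 to 1571 reads, and the HF + AD mice 735 to 3888 and 322 to 2407. DESeq2's test called Cxcr2 (adjusted p = 0.0303 from DESeq2). The summed level of the list was 200 to 3698 CPM in the AD group and 95.6 to 468 CPM in the HF + AD group. Of 7 T cell markers 4 were tested, 3 higher and 1 lower, and none called. Cd4 was called without AD mouse 5, which held all 33 Cd4 reads of the AD group. The lower one, Cd3g, had an unadjusted p under 0.05 and averaged 3.47 CPM in the AD and 0.786 CPM in the HF + AD group, whereas the other chains of the T cell receptor complex in the list, Cd3e and Cd3d, averaged 0.0723 and 0.852 CPM in the AD and 0.540 and 1.33 CPM in the HF + AD group. Of 6 keratinocyte markers 5 were tested, 3 higher and 2 lower, and Krt5 (log2 fold change 0.81, adjusted p = 0.00679 from edgeR) and Krt14 (1.05, adjusted p = 0.0248), keratins of the basal epidermis, rose, Krt14 without a call in the fits that left out AD mouse 2, 3 or 4 and with the GC correction. Of the genes of the differentiated layers, Krt10 and Lor had log2 fold changes of −0.42 and −0.29 and Krt1 of 0.12. None of them was called (adjusted p = 0.690, 0.804 and 0.926 from edgeR). None of 6 fibroblast markers was called, and 5 were higher and 1 lower (the collagen Col1a1, log2 fold change −0.45, beside 0.25 for Col1a2). Pdgfra, a growth factor receptor of fibroblasts, had an unadjusted p under 0.05 (log2 fold change 0.96), and it and the collagen Col3a1 (0.80) were called without AD mouse 1. None of 4 tested adipocyte markers was called or had an unadjusted p under 0.05, with the adipokine Adipoq at −0.54 and the lipid droplet gene Plin1 at 0.12. Plin1 was called without AD mouse 2, which held all 76 Plin1 reads of the AD group. Of 6 skeletal muscle markers 5 were lower and 1 higher, and 4 had an unadjusted p under 0.05. Acta1, the skeletal actin, fell (log2 fold change −0.72, adjusted p = 0.0481 from edgeR), a call lost in 9 of the 12 fits without 1 mouse, and Myh4, a myosin of fast fibres, missed the threshold at −1.82 (adjusted p = 0.0558 from edgeR). Myh4 was called in some other fits, among them that with the GC correction, and the myosin Myh1 (−0.72) without HF + AD mouse 6.

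**Figure D5:**
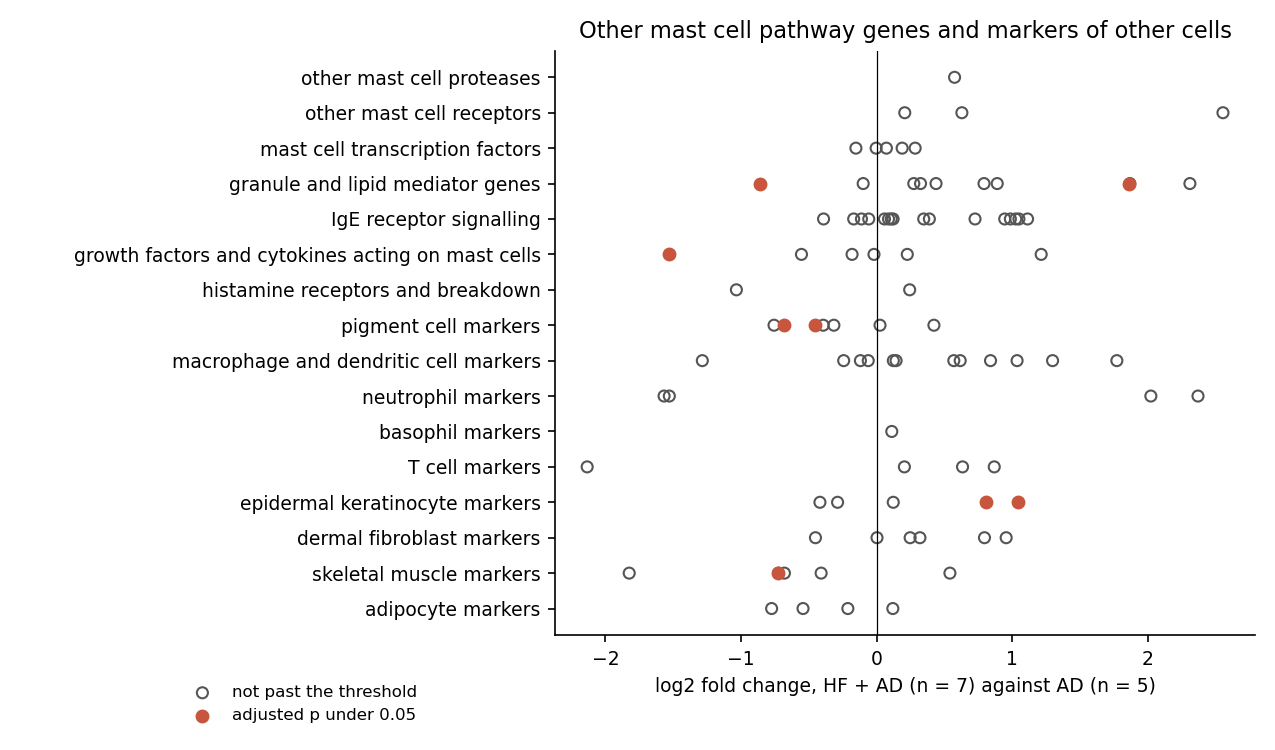
Log2 fold change of the HF + AD group (n = 7) against the AD group (n = 5) for each tested gene of 16 lists, 1 circle per gene. Filled circles had an adjusted p under 0.05 and open circles did not. To the right of 0, 1 gene of the granule list and 2 keratinocyte genes lie filled. To the left lie 1 gene of the granule list, 1 of the growth factors and cytokines, 2 pigment cell genes and 1 skeletal muscle gene.

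The genes whose variation from mouse to mouse was most like that of Cpa3 were no mast cell genes of this set. Among 13202 genes with a mean count of at least 20, and with group means subtracted over the 12 mice, Pearson's r with Cpa3 was 0.90 for Ngfr (a nerve growth factor receptor), 0.90 for Ifitm3 (an interferon-induced membrane protein), 0.90 for Ednrb (an endothelin receptor), 0.90 for Cldn5 (an endothelial tight junction protein) and 0.90 for Med25 (a Mediator subunit). These were the highest of so many that they describe a pattern and test nothing. Cma1 held rank 70, Mcpt4 rank 173 and Tpsb2 rank 251 in this order, and Fcer1g rank 4389. Ngfr had 34 reads in AD mouse 3, where no Cpa3 read was found, against 105 to 187 in the other AD mice.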

How the data were processed

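Skin RNA of 12 mice was read by QuantSeq 3′ mRNA sequencing. The authors deposited 1 table of raw read counts per mouse, by gene symbol; the submitters' processing notes name Bowtie2, bedtools and mm10, without versions, and the study's methods name edgeR for normalization. Strand, duplicate and multi-mapping settings are not given in the sources used here, and the handling of copies can move reads between paralogs.

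Groups came from the labels (AD, n = 5; AD+OB, n = 7). Of 23282 entries, 4677 had no read in any mouse and none lacked a name. Counts were filtered with filterByExpr, scaled by TMM and tested by the quasi-likelihood test of edgeR 4.0.16 in R 4.3.3, with group as the only term. CPM used TMM-scaled totals, and 1 was added before the log2. DESeq2 1.42.0, limma 3.58.1, other scalings and filters, counts per molecule, a replicate block and the leaving out of each mouse were alternatives; a GC correction in 20 bins was added after the data were seen. Exact permutation tests used SciPy 1.17.1 and NumPy 2.4.6. Relations were tested with 100000 permutations within groups. The edgeR fit alone was run on simulated counts, with the same relative spread for all genes and no group difference in counts per molecule. That run does not check the fit under the difference in complexity seen here. Totals of 9746937 to 13462434 counts limit the precision, and limits for a count of 0 cover counting error only.

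The members and lists were chosen with earlier results of these data known. All 10 members are named; of each list, the genes past the adjusted threshold are named, otherwise the first 2 measured, and Ctsg, Hrh3, Hrh4 and other genes named beyond that were chosen after their values were seen. Mcpt10, Mrgprb13, Trac and Flg were not found by symbol. Positions are from GENCODE on GRCm38, the assembly that mm10 names.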

Additional observations from a re-analysis of the deposited data

Results flagged for a closer look

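Of 48 groups of values checked for a sample far from the others, 2 had one, and chance flags about 1 in 20 such groups. Fcer1g in AD mouse 1 was at 0.35 on the log2(CPM + 1) scale, with the other AD mice between 2.24 and 3.01. The 3 reads on it stand for 0.088 molecules by the estimate of counts per molecule. The difference between Kit and Cpa3 in AD mouse 3 was 5.03 on the log2 scale, where Cpa3 had no read, with the other AD mice between 2.00 and 2.44. Neither was explained further.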

How the results depend on the processing

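The number of mast cell genes called was 0 in edgeR's test, 1 without a filter on low counts (Tpsab1), 2 with counts per molecule and 2 with DESeq2's Wald test (Cpa3 and Fcer1g in both). With counts per molecule, an AD mouse held at most 3.46 estimated molecules of Cpa3 and 5.32 of Fcer1g. The replicate block gave 192 called genes in place of 1303 and called no mast cell gene; the numbers did not pair the mice (correlations of same-numbered deviations −0.082 to 0.039) and no AD mouse correlated best with its own number. Without 1 mouse the called genes numbered 639 to 1461, at 639, 686 and 794 when HF + AD mouse 2, 1 or 4 was left out and at 803 when AD mouse 2 was. DESeq2 called 1946 genes and limma 1558.

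Signs turned in these values, none of which was past its own threshold: the log2 fold change was −0.033 for Mcpt4 under the replicate block and −0.10 for Tpsb2 with the GC correction, the difference of mean ranks was −0.17 for Mcpt4, and Tpsab1 minus Cpa3 differed by 0.49 with a pseudocount of 0.1. Without 1 mouse, log2 fold changes ran from −0.054 to 0.52 for Tpsb2, −0.77 to 0.13 for Ms4a2 and −0.52 to 1.83 for Mrgprb1. Differences in log2(CPM + 1) ran from −0.047 to 0.24 for Mcpt4, −0.024 to 0.40 for Tpsb2, −0.55 to 0.024 for Ms4a2 and −0.10 to 0.29 for Hdc, and that of Fcer1g minus Cpa3 from −0.74 to 0.45. The causes were not tested. A minimum of 10 counts in every mouse left out Cpa3, Cma1, Tpsab1, Ms4a2, Fcer1g and Mrgprb1. Depth limits the genes with few molecules in the AD libraries most: Tpsab1, Ms4a2, Mrgprb1, Cpa3 and Fcer1g.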
